A study of Sus scrofa with 8 samples.

Results

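The genes described here are the nuclear-encoded genes of the mitochondrial respiratory chain and ATP synthase, measured by bulk RNA sequencing of limb muscle from pig embryos (Sus scrofa). They were taken by symbol. The rule took every row of the count table whose mapped symbol starts with NDUFA, NDUFB, NDUFC, NDUFS, NDUFV, UQCR, ATP5, COX4I, COX5, COX6, COX7 or COX8, or is SDHA, SDHB, SDHC, SDHD or CYC1. It found 81 of 22516 rows, and all 81 passed the filter on low counts. Of these, 70 encode subunits and 11 do not. The subunits were 32 of complex I, 4 of complex II, 8 of complex III, 14 of complex IV (NDUFA4 is counted there) and 12 of complex V. The other 11 were 8 complex I assembly factors named NDUFAF, the ATP synthase inhibitor ATP5IF1, the supercomplex factor COX7A2L and the NDUFA4 paralog NDUFA4L2. Genes such as COX6B1, NDUFS7 and ATP5F1B did not come up under their symbol and were not used here.

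The 8 libraries form 4 groups of 2. They are limb muscle from embryos with MYF5, MYOD and MYF6 knocked out, on embryonic day 41 (KO E41), with wild-type limb muscle of the same day (WT E41), and knockout limb muscle on embryonic day 62 (KO E62) with wild-type limb muscle of that day (WT E62). The 3 genes encode the transcription factors that commit cells to the skeletal muscle lineage. The sample titles call the libraries biological replicates without saying which animal each came from (the KO E62 library names carry Emb1 and Emb4), and each p-value therefore reflects only how these libraries vary. How the knockout was made is not given in the sources used here. Knockdown is the word in the series title and knockout that of the samples. For the later stage the growth protocol has E60. Within a group the library names share a leading number that differs from those of the other groups, while the numbers after it recur across groups. The names carry the code LHL in WT E41 and RHL in the other 3 groups. What these codes mark cannot be told apart from the groups.

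The respiratory chain sits in the inner mitochondrial membrane. Complexes I and II pass electrons from NADH and succinate to ubiquinone, complex III passes them to cytochrome c, and complex IV (cytochrome oxidase) hands them to oxygen, while complexes I, III and IV pump protons that drive ATP synthesis by complex V. Most subunits come from nuclear genes, a few from mitochondrial DNA, and some complex IV subunits exist as an isoform of heart and skeletal muscle (COX6A2, COX7A1) and a widely expressed isoform (COX6A1, COX7A2).

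Totals ranged from 23402052 to 60539245 counts per library, and every knockout library was deeper than every wild-type library. MYF5 and MYF6 had 0 counts in all 4 knockout libraries, and MYOD1 had 28 and 20 counts in KO E41 and 77 and 88 in KO E62, against 1503 and 2161 in WT E41 and 5715 and 5203 in WT E62. The tissue label was borne out in wild type only. Summed over 10 skeletal muscle markers, TMM-scaled CPM (library-size-normalised counts, scaled by the trimmed mean of M values, the level used throughout) were 29.1 and 26.0 in KO E41, against 16461 and 15121 in WT E41, and 15.0 and 16.9 in KO E62, against 36405 and 46294 in WT E62. All 10 markers were lower in knockout at both stages. ACTA1, skeletal muscle actin, was at 0.11 CPM or less in each knockout library, against at least 944 CPM in each wild-type library. In this bulk tissue, fewer muscle cells and less RNA per cell cannot be told apart. Other tissues also moved: 8 macrophage markers summed to 748 and 706 CPM in KO E62, against 161 and 186 CPM in WT E62, and 8 fibroblast markers to 67264 and 73181 CPM in KO E62, against 20577 and 37290 CPM in WT E62. Replicates differed in tissue content as well. Cartilage markers summed to 374 and 4373 CPM in the KO E41 libraries and keratinocyte markers to 716 and 10.2 CPM in the KO E62 libraries. The part of these tissues in the values below was not tested.

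The members as a group were lower in knockout limb muscle at both stages. They held 0.506% and 0.476% of all counts in KO E41, against 0.692% and 0.751% in WT E41, and 0.531% and 0.489% in KO E62, against 0.745% and 0.634% in WT E62. Knockout and wild type did not overlap at either stage, and the mean difference was −0.205 percentage points (two-sided exact permutation within stage, p = 0.0556, the smallest that 36 arrangements can give). These shares use no scaling factor.

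At E41, 66 of 81 members fell in knockout and 0 rose at an adjusted p under 0.05 (edgeR quasi-likelihood F test, Benjamini-Hochberg over all 17020 genes tested). Among all genes, 20.8% fell and 18.5% rose, 39.2% in either direction. The median member log2 change was −0.85, against 0.09 over all genes. At an unadjusted p under 0.05, 1 member was higher, COX4I2, which DESeq2 also called. At E62, 61 members fell and 2 rose, against 26.2% and 21.0% of all genes (47.2% in either direction), with a median of −0.74 against 0.06. Both knockout libraries were below both wild-type libraries for 73 members at E41 and 70 at E62. The share of all genes separated in this way is not given here, so nothing further is read from these counts. Scaling by library size alone raised the median of all genes by 0.29 at E41 and 0.30 at E62, and upper-quartile factors raised it by 0.11 and 0.25. Under library size alone 51 members fell and 1 rose at E41, and 46 fell and 6 rose at E62. Of all 17020 genes, 2070 fell and 5780 rose at E41 with that scaling, and 2717 fell and 6156 rose at E62. The same all-gene counts apply to every library-size count of knockout against wild type below. With library size alone the members' median was 0.94 (E41) and 0.80 (E62) below that of all genes. A change of scaling factor shifts all genes almost alike, so this gap could not move and is no check on the scaling.

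**Figure D1:**
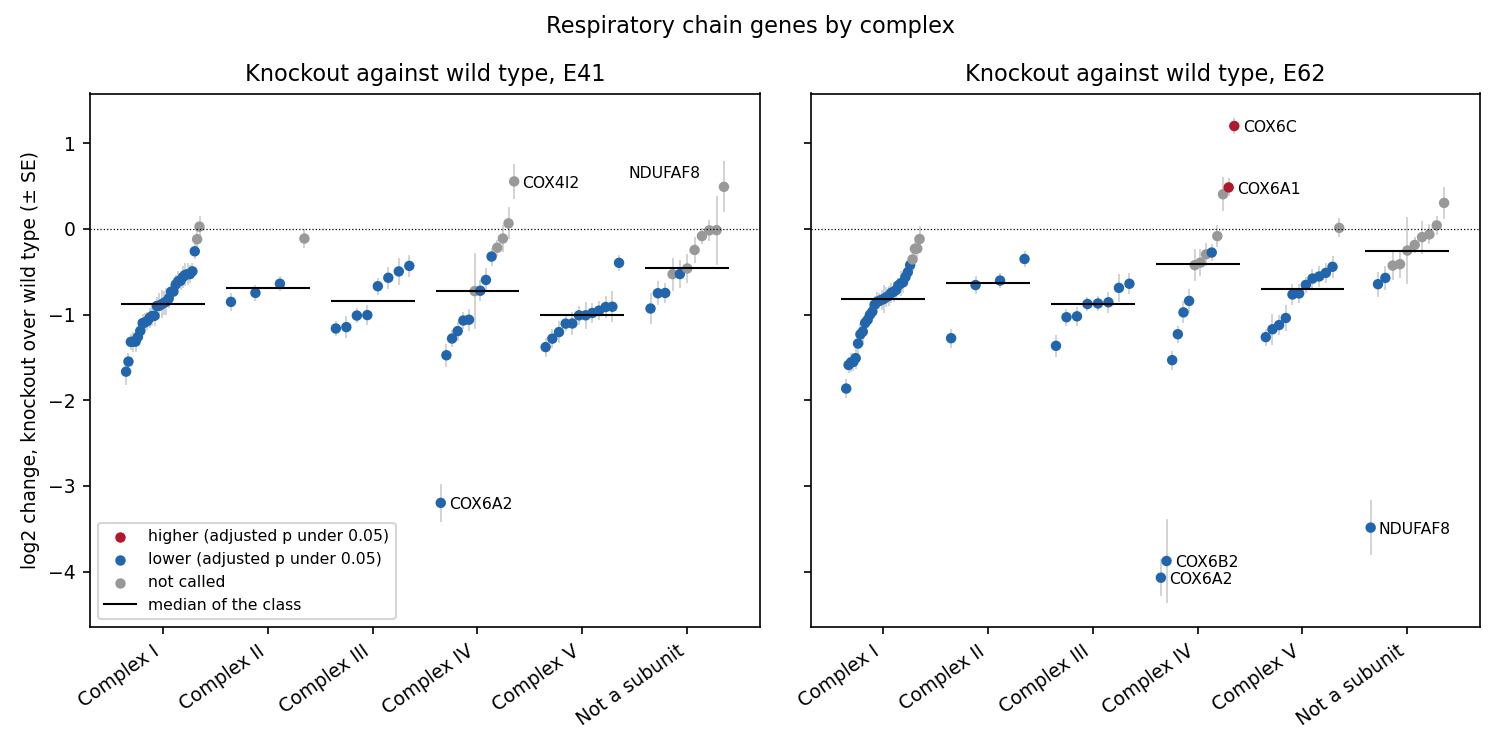
Log2 change of each of the 81 genes in knockout over wild type at E41 (left) and E62 (right), by complex, with standard errors. Black bars are class medians, all below 0 with TMM scaling (with library size alone the E62 median of the genes that are not subunits is 0.05). COX6A2 stands lowest at both stages, and 2 red points at E62 are COX6C and COX6A1.

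The plot by complex shows falls in every complex. At E41 the median log2 change was −0.87 in complex I, −0.69 in complex II, −0.84 in complex III, −0.72 in complex IV and −1.01 in complex V. At E62 these medians were −0.82, −0.63, −0.87, −0.41 and −0.70 in the same order. With library size alone all 10 stayed below 0, between −0.72 and −0.11.

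Complex I, the NADH dehydrogenase, had 30 of 32 subunits called lower at E41 and 28 at E62, with none called higher. The lowest at E41 was NDUFB1, an accessory subunit of the membrane arm. It had 10.3 and 11.4 CPM in KO E41, against 34.2 and 34.8 CPM in WT E41, a log2 change of −1.67 ± 0.15 (SE, adjusted p = 0.00021). The levels did not overlap. At E62 NDUFB1 had 18.4 and 14.7 CPM in knockout, against 23.04 and 28.4 CPM in wild type, a smaller fall of −0.64 ± 0.15 (adjusted p = 0.0097).

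NDUFA10, an accessory subunit, was the lowest of complex I at E62. KO E62 had 33.5 and 33.9 CPM, against 135 and 111 CPM in WT E62, a log2 change of −1.86 ± 0.11 (adjusted p = 1.1e-05). At E41 it had 47.6 and 47.2 CPM in knockout, against 97.4 and 105 CPM in wild type (−1.09 ± 0.11, adjusted p = 0.00027). NDUFS6, a zinc-binding accessory subunit, had 27.7 and 23.2 CPM in KO E41, against 39.5 and 38.0 CPM in WT E41, and 18.6 and 19.6 CPM in KO E62, against 58.2 and 54.5 CPM in WT E62. Its log2 change was −0.61 ± 0.11 at E41 (adjusted p = 0.0037, and 0.059 with library size alone) and −1.56 ± 0.11 at E62 (adjusted p = 2.6e-05). Knockout was the lower group for both genes at both stages.

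NDUFS8 encodes a core subunit that carries iron-sulfur clusters. It had 49.1 and 42.5 CPM in KO E41, against 41.6 and 48.4 CPM in WT E41, and the groups overlapped (0.03 ± 0.12, adjusted p = 0.89). At E62 the levels were 27.1 and 26.2 CPM in knockout, against 81.2 and 70.7 CPM in wild type, which is −1.51 ± 0.12 on the log2 scale (adjusted p = 5.5e-05). NDUFA2, an accessory subunit with a thioredoxin-like fold, showed the reverse order of stages. It had 16.3 and 14.2 CPM in KO E41, against 25.9 and 29.2 CPM in WT E41 (−0.85 ± 0.15, adjusted p = 0.0039), and 23.7 and 21.9 CPM in KO E62, against 28.1 and 21.4 CPM in WT E62 (−0.12 ± 0.15, adjusted p = 0.54, above 0 with library size alone). At E62 its groups overlapped.

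Complex II, succinate dehydrogenase, also belongs to the citric acid cycle. At E41 3 of its 4 subunits fell, and at E62 all 4 did. SDHA, the flavoprotein that oxidises succinate, had 100.06 and 88.0 CPM in KO E41, against 99.9 and 104 CPM in WT E41 (−0.11 ± 0.11, adjusted p = 0.45, and above 0 with library size alone). At E62 it had 67.0 and 73.9 CPM in knockout, against 184 and 158 CPM in wild type, which is −1.28 ± 0.11 on the log2 scale (adjusted p = 8.5e-05). The groups overlapped at E41 and stood apart at E62. SDHB, the iron-sulfur subunit, had 52.9 and 50.8 CPM in KO E41, against 96.2 and 91.1 CPM in WT E41 (−0.85 ± 0.11, adjusted p = 0.00077). The membrane anchor SDHC fell least at E62, with 58.9 and 58.3 CPM in knockout, against 79.3 and 70.3 CPM in wild type (−0.35 ± 0.09, adjusted p = 0.012). That call was lost without KO E62 replicate 2 (adjusted p = 0.051), without WT E62 replicate 1 (0.067) and with library size alone (0.68).

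Complex III, the cytochrome bc1 complex, was called lower in all 8 measured subunits at both stages, and with library size alone in 5 at E41 and 6 at E62. UQCRB, a small subunit near the ubiquinone site, had 23.4 and 22.6 CPM in KO E41, against 52.1 and 50.9 CPM in WT E41 (−1.16 ± 0.09, adjusted p = 8.0e-05). CYC1, the cytochrome c1 haem protein that passes electrons to cytochrome c, had 46.3 and 45.3 CPM in KO E62, against 132 and 104 CPM in WT E62 (−1.37 ± 0.13, adjusted p = 0.00013). UQCR10, a small structural subunit, fell least at both stages, by 0.43 ± 0.12 at E41 (adjusted p = 0.027) and by 0.64 ± 0.12 at E62 (adjusted p = 0.0040) on the log2 scale. It had 42.0 and 36.5 CPM in KO E41, against 48.3 and 57.7 CPM in WT E41. Its E41 call was lost without KO E41 replicate 2 (adjusted p = 0.17), or WT E41 replicate 2 (0.17), or under library-size scaling (0.39), and its E62 call with library size alone (0.057).

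Complex IV was the most uneven. At E41 9 of its 14 members fell and 0 rose, and at E62 7 fell and 2 rose. COX6A2, the heart and skeletal muscle form of subunit VIa, had 4.80 and 4.58 CPM in KO E41, against 39.4 and 46.8 CPM in WT E41. At E62 it had 8.16 and 9.24 CPM in knockout, against 177 and 116 CPM in wild type. Knockout libraries stood far below wild type at both stages, 9.18-fold lower at E41 (log2 −3.20 ± 0.22, adjusted p = 7.2e-05) and 16.8-fold lower at E62 (−4.07 ± 0.22, adjusted p = 1.1e-05).

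COX6A1, the widely expressed form of the same subunit, had 125 and 116 CPM in KO E41, against 142 and 160 CPM in WT E41, and 125 and 123 CPM in KO E62, against 94.9 and 82.0 CPM in WT E62. Knockout was lower at E41 (−0.32 ± 0.11, adjusted p = 0.042) and higher at E62 (0.48 ± 0.11, adjusted p = 0.0068). The E41 call was lost without each E41 library in turn (adjusted p from 0.069 to 0.22, at WT E41 replicates 1 and 2), without either KO E62 library (0.056 each) and with library size alone (0.83). The E62 call held in each alternative run. Within a library, the log2 ratio of COX6A2 to COX6A1 counts was −4.70 and −4.66 in KO E41, against −1.85 and −1.77 in WT E41, and −3.93 and −3.73 in KO E62, against 0.90 and 0.50 in WT E62. The ratio needs no scaling, and all 4 knockout libraries lay below the wild-type libraries of their stage (mean difference −3.70, exact permutation p = 0.0556, the smallest possible).

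COX7A1, the heart and skeletal muscle form of subunit VIIa, behaved unlike COX6A2. It had 7.66 and 8.08 CPM in KO E41, against 8.89 and 8.14 CPM in WT E41, and 8.90 and 10.4 CPM in KO E62, against 13.4 and 11.9 CPM in WT E62. Its log2 change was −0.11 ± 0.16 at E41 (adjusted p = 0.61, above 0 with library size alone) and −0.39 ± 0.15 at E62 (adjusted p = 0.069), so it was called at neither stage, although limma-voom called it at E62 (adjusted p = 0.040). The gene lies at chr6:45519225-45520721 on Sscrofa11.1. Its widely expressed partner COX7A2 had 36.2 and 32.9 CPM in KO E41, against 88.1 and 104 CPM in WT E41, and 39.8 and 36.3 CPM in KO E62, against 51.8 and 41.8 CPM in WT E62. COX7A2 fell at E41 (−1.48 ± 0.14, adjusted p = 0.00021) and was not called at E62 (−0.30 ± 0.13, adjusted p = 0.10), where it passed without WT E62 replicate 2 (0.034). The log2 ratio of COX7A1 to COX7A2 counts was 1.36 higher in knockout at E41 and 0.11 lower at E62 (mean difference 0.63, exact permutation p = 0.278).

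**Figure D2:**
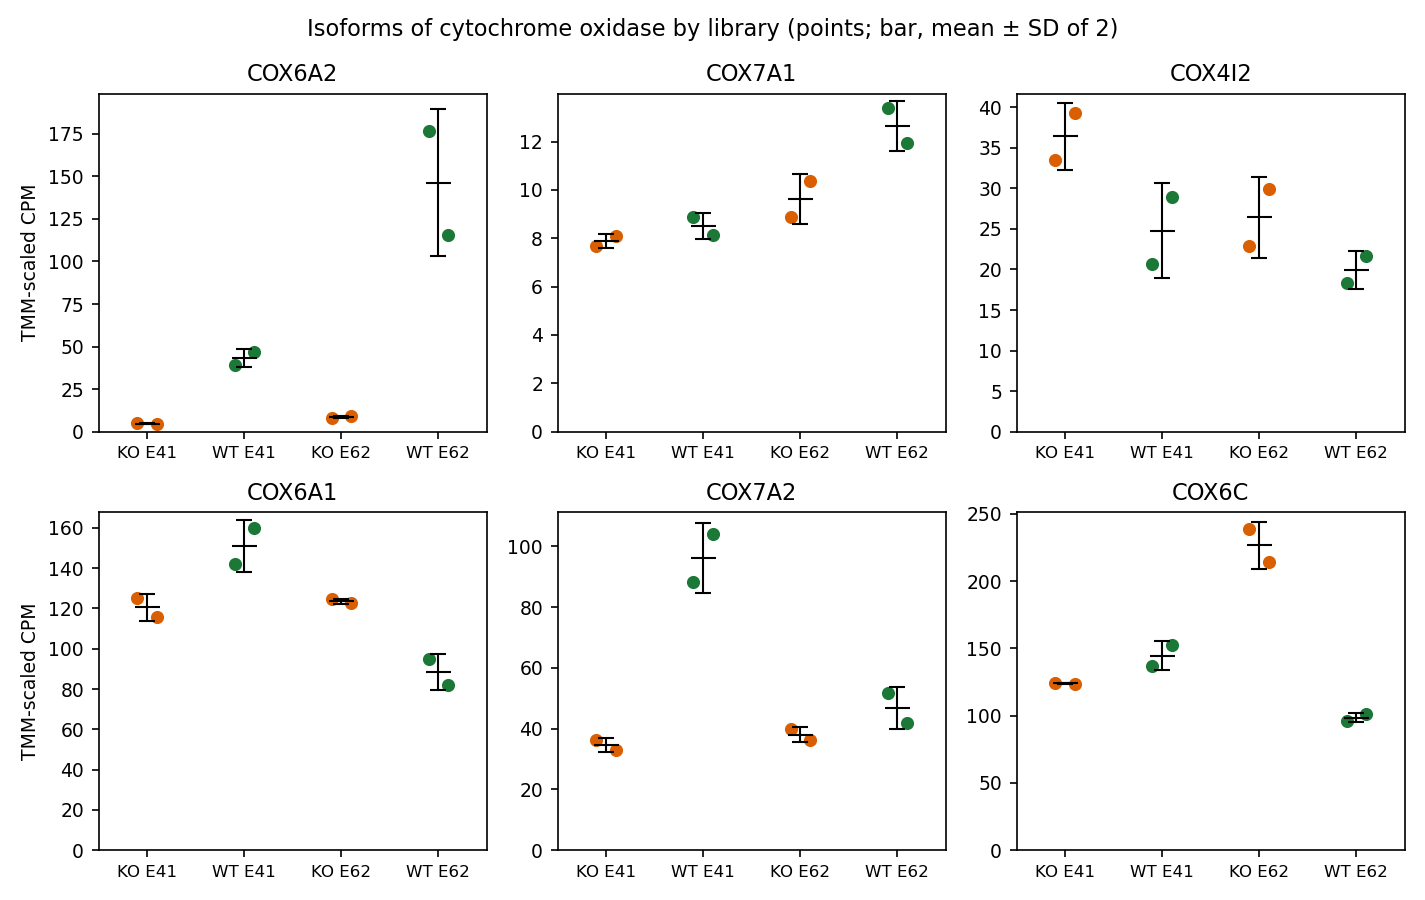
TMM-scaled CPM of 6 complex IV subunits in each of the 8 libraries (points), with mean and SD of the 2 libraries per group. COX6A2 is at 9.24 CPM or less in all knockout libraries, whereas COX6A1 and COX6C are higher in knockout than in wild type at E62.

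COX6C, a small subunit of complex IV with no isoform pair among the members, gave the largest rise. The plot of isoform levels shows 239 and 214 CPM in KO E62, against 96.2 and 101 CPM in WT E62, 2.30-fold higher (log2 1.20 ± 0.10, adjusted p = 5.5e-05). At E41 it had 124 and 124 CPM in knockout, against 137 and 152 CPM in wild type (−0.22 ± 0.10, adjusted p = 0.10, above 0 with library size alone). COX6C has near-identical copies in many mammalian genomes, and estimated counts divide reads among such copies, so its level is uncertain.

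COX4I2 is the isoform of subunit IV known from lung and from low oxygen. It had 33.5 and 39.3 CPM in KO E41, against 20.6 and 29.0 CPM in WT E41, and 22.9 and 29.95 CPM in KO E62, against 18.3 and 21.6 CPM in WT E62. All knockout libraries were above the wild-type libraries of their stage, but neither stage passed (0.55 ± 0.20, adjusted p = 0.063 at E41, and 0.40 ± 0.20, adjusted p = 0.13 at E62). At E41 it passed without WT E41 replicate 2 (adjusted p = 0.033), without either KO E62 library (0.044 and 0.045), with DESeq2 (0.036) and with the replicate number as a block (0.0093), and at E62 with that block (0.026) and with library size alone (0.021).

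COX4I1, the general isoform of subunit IV, fell, with 177 and 155 CPM in KO E41, against 226 and 276 CPM in WT E41 (−0.60 ± 0.14, adjusted p = 0.011), and 167 and 149 CPM in KO E62, against 306 and 260 CPM in WT E62 (−0.84 ± 0.14, adjusted p = 0.0018). Its E41 call was lost without KO E41 replicate 2 (adjusted p = 0.086), or WT E41 replicate 2 (0.077), or under library-size scaling (0.12). The log2 ratio of COX4I2 to COX4I1 counts was −2.40 and −1.98 in KO E41, against −3.45 and −3.25 in WT E41, and −2.86 and −2.32 in KO E62, against −4.06 and −3.59 in WT E62. Knockout was higher in every library of both stages (mean difference 1.20, exact permutation p = 0.0556, the smallest possible).

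NDUFA4, a subunit of complex IV despite its name, fell to 75.4 and 70.3 CPM in KO E41, against 174 and 180 CPM in WT E41, and to 73.6 and 70.3 CPM in KO E62, against 181 and 156 CPM in WT E62 (−1.28 ± 0.10 and −1.23 ± 0.10). NDUFA4L2, its low-oxygen paralog, had 2.88 and 6.71 CPM in KO E41, against 4.83 and 4.87 CPM in WT E41, and 12.6 and 8.04 CPM in KO E62, against 13.7 and 11.0 CPM in WT E62. Neither stage was called for NDUFA4L2 (−0.02 ± 0.40 and −0.25 ± 0.39, both above 0 with library size alone), and its libraries overlapped at both. The log2 ratio of NDUFA4L2 to NDUFA4 counts was 1.14 higher in knockout at E41 and 0.94 higher at E62 (exact permutation p = 0.0556, the smallest possible, and up to 0.111 with a library left out). RefSeq lists the symbol NDUFA4 both at chr9:80637005-80644067 and at chr13:30448569-30449050. Whether reads were shared between these positions was not tested, so the NDUFA4 level and the ratio are uncertain.

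COX6B2, the testis form of subunit VIb, was read from few counts: 53 and 30 in KO E41, against 22 and 43 in WT E41, and 15 and 12 in KO E62, against 112 and 99 in WT E62. It was not called at E41 (−0.73 ± 0.44, adjusted p = 0.23) and fell at E62 (−3.88 ± 0.49, adjusted p = 0.00052). COX8A, the general form of subunit VIII, was called at neither stage. It had 99.2 and 79.1 CPM in KO E41, against 77.4 and 93.2 CPM in WT E41 (0.06 ± 0.19, adjusted p = 0.82), and 58.5 and 61.1 CPM in KO E62, against 94.3 and 66.2 CPM in WT E62 (−0.42 ± 0.19, adjusted p = 0.10, and 0.018 without WT E62 replicate 2).

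Complex V, the ATP synthase, was called lower in all 12 measured subunits at E41 and in 11 at E62. With library size alone 11 fell at E41, and 7 fell and 1 rose at E62. ATP5MK, a small membrane subunit also known as DAPIT, had 32.2 and 33.2 CPM in KO E41, against 81.8 and 88.6 CPM in WT E41, that is −1.38 ± 0.11 in log2 (adjusted p = 0.00012). At E62 the groups overlapped, with 57.4 and 47.0 CPM in knockout, against 51.5 and 52.1 CPM in wild type (0.01 ± 0.11, adjusted p = 0.94, and 0.040 with library size alone, where it is higher in knockout). ATP5F1D, the delta subunit of the rotor stalk, had 100.5 and 92.4 CPM in KO E41, against 126 and 128 CPM in WT E41, and 72.0 and 69.4 CPM in KO E62, against 182 and 157 CPM in WT E62. It fell least of complex V at E41 (−0.40 ± 0.10, adjusted p = 0.014) and most at E62 (−1.26 ± 0.10, adjusted p = 4.6e-05). The E41 call of ATP5F1D was lost without KO E41 replicate 2 (adjusted p = 0.11), WT E41 replicate 1 (0.076) or replicate 2 (0.068) of that group, or under library-size scaling (0.43).

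Of the 11 genes that are not subunits, 4 were called lower at E41 and 3 at E62, where 20.8% and 26.2% of all genes were. Their median log2 change was −0.46 and −0.25 (0.05 at E62 with library size alone, where 1 was lower and 2 were higher). Of the 8 NDUFAF assembly factors, which help build complex I without staying in it, 2 fell at each stage. NDUFAF2 had 4.87 and 4.30 CPM in KO E41, against 8.31 and 9.16 CPM in WT E41 (−0.93 ± 0.18, adjusted p = 0.0059, and 0.059 without KO E41 replicate 2), and 5.44 and 5.61 CPM in KO E62, against 4.57 and 4.39 CPM in WT E62 (0.30 ± 0.18, adjusted p = 0.21). NDUFAF8, an assembly factor that pairs with NDUFAF5, had 2.63 and 1.91 CPM in KO E41, against 1.55 and 1.68 CPM in WT E41 (0.49 ± 0.30, adjusted p = 0.23). At E62 it had 0.428 and 0.534 CPM in knockout, against 5.38 and 5.45 CPM in wild type, 11.2-fold lower (log2 −3.49 ± 0.32, adjusted p = 0.00011). These levels rest on 29 and 32 counts in KO E62, against 179 and 185 counts in WT E62.

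To set COX6A2 and COX7A1 against the rest of the chain, all genes were refitted with scaling factors computed from the other 79 members, so that a change of 0 means moving with those members. COX6A2 fell relative to them at both stages, by 2.36 ± 0.19 at E41 (adjusted p = 9.6e-05) and 3.31 ± 0.19 at E62 (adjusted p = 1.1e-05) on the log2 scale. COX7A1 was higher than them at E41 (0.72 ± 0.19, adjusted p = 0.011), a call lost without KO E41 replicate 2 (adjusted p = 0.066) or WT E41 replicate 2 (0.062), and was not called at E62 (0.35, adjusted p = 0.12). The 2 muscle isoforms thus lay on opposite sides of the other members at E41. The median of all genes on this scale was 0.93 at E41, above COX7A1, and 0.80 at E62. COX7A1 therefore stood above the members but not above the typical gene. On this scale 20 members were called higher and 17 lower at E41, and 18 higher and 22 lower at E62. Of all genes, 63.6% passed as higher and 4.42% as lower at E41, and 59.6% and 8.75% at E62. In the same fit COX4I2 was also higher than the other members at both stages (1.40 and 1.14, adjusted p = 0.0014 and 0.0037), and so was COX6A1 (0.52 and 1.23, adjusted p = 0.0029 and 8.1e-05).

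Between stages, again relative to the other members, the knockout effect on COX6A2 was deeper at E62 (−0.95 ± 0.25, adjusted p = 0.031). That call was lost without either KO E41 library, either WT E41 library, KO E62 replicate 1 or WT E62 replicate 1 (adjusted p from 0.067 to 0.099) and with the replicate block (0.054). For this difference 15 members were called higher and 13 lower, against 6.48% and 14.4% of all genes. COX6A2 gained on the other members with stage in wild type (1.86 ± 0.18, adjusted p = 0.00062), where 17 members were called higher and 11 lower, against 20.5% and 14.4% of all genes. COX7A1 gained there too (0.67 ± 0.19, adjusted p = 0.028), a call lost without either KO E41 library or any 1 wild-type library (adjusted p from 0.054 to 0.12). In knockout COX6A2 gained 0.91 ± 0.18 (adjusted p = 0.012), a call lost without KO E41 replicate 1 or 2 (0.077 each) or KO E62 replicate 2 (0.052). There 10 members were called higher and 8 lower, against 8.88% and 14.5% of all genes.

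Members called lower at both stages numbered 56, which is 84.8% of those lower at E41 and 91.8% of those lower at E62. The share of all genes called lower at both stages is not given here, so this overlap is not read as particular to the members. A further 10 were lower at E41 alone, 5 at E62 alone, and 9 were called at neither. The members called lower at neither stage were COX6C, COX7A1, COX4I2 and COX8A of complex IV, NDUFC1 of complex I, and the non-subunits NDUFAF1, NDUFAF4, NDUFAF5, NDUFAF7 and NDUFA4L2. Across the 81 genes the size of the change at E41 was a weak guide to that at E62 (Pearson r = 0.28, Spearman rho = 0.20, a description over genes, which share libraries and are not independent).

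**Figure D3:**
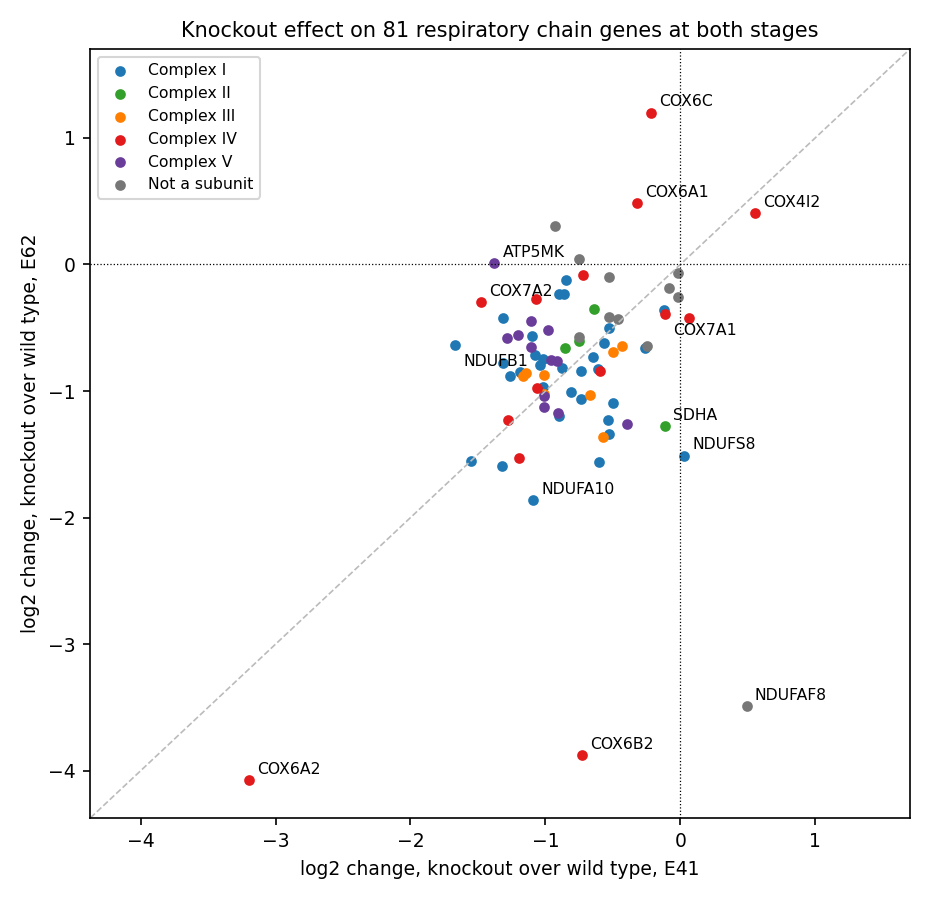
Log2 change in knockout over wild type at E41 (x axis) and E62 (y axis) for the 81 genes, coloured by complex. The dashed line marks equal change. SDHA, NDUFS8 and NDUFAF8 lie far below it and COX6C, ATP5MK and COX7A2 far above it.

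The difference between the 2 knockout effects (E62 minus E41), tested in the same fit, was called for 30 members, 18 positive and 12 negative, against 11.2% and 15.5% of all genes (26.8% in either direction). The plot of both stages shows which. Among negative differences, where the log2 change was lower at E62 than at E41, were NDUFAF8 (−3.98 ± 0.43, adjusted p = 0.0013), NDUFS8 (−1.54 ± 0.17, adjusted p = 0.0014), SDHA (−1.16 ± 0.16, adjusted p = 0.0024), NDUFS6 (−0.95 ± 0.15), ATP5F1D (−0.87 ± 0.14) and NDUFA10 (−0.77 ± 0.15). Positive differences were led by COX6C (1.42 ± 0.14, adjusted p = 0.00098) and ATP5MK (1.39 ± 0.16, adjusted p = 0.0014), with COX7A2 at 1.18 ± 0.19 and COX6A1 at 0.81 ± 0.15. COX6A2 itself did not pass (−0.87, adjusted p = 0.060, and 0.0073 without WT E62 replicate 2), and COX7A1 did not either (−0.28, adjusted p = 0.38). Leaving out KO E41 replicate 1 or KO E41 replicate 2 cut the 30 called members to 17 and 18.

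In wild-type limb muscle, E62 against E41, 10 members rose and 16 fell, against 19.8% and 20.0% of all genes (39.8% in either direction). COX6A2 rose most, to 177 and 116 CPM in WT E62, against 39.4 and 46.8 CPM in WT E41 (1.76 ± 0.20, adjusted p = 0.00090). COX7A1 rose by 0.57 ± 0.16 (adjusted p = 0.023), a call lost without WT E41 replicate 2 (adjusted p = 0.071) or WT E62 replicate 1 (0.076). The others that rose were NDUFAF8 (1.74), NDUFA4L2 (1.35), SDHA (0.75), NDUFS8 (0.75), CYC1 (0.63), NDUFS6 (0.54), ATP5F1D (0.42) and NDUFV1 (0.37). The widely expressed isoforms COX7A2 (−1.04 ± 0.13, adjusted p = 0.0012) and COX6A1 (−0.77 ± 0.11, adjusted p = 0.0014) fell. Skeletal muscle markers rose at the same time, 10 of 10.

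In knockout limb muscle, E62 against E41, 9 members rose and 11 fell, against 12.1% and 18.0% of all genes (30.1% in either direction). COX6A2 rose here too, to 8.16 and 9.24 CPM in KO E62, against 4.80 and 4.58 CPM in KO E41 (0.89 ± 0.21, adjusted p = 0.018). Its call was lost without KO E41 replicate 1 (adjusted p = 0.091), KO E41 replicate 2 (0.098) or KO E62 replicate 2 (0.081). COX6C (0.87 ± 0.10, adjusted p = 0.0014) and ATP5MK (0.67 ± 0.11, adjusted p = 0.0047) rose, and NDUFB1 (0.61 ± 0.15, adjusted p = 0.021) and COX7A2L (0.52 ± 0.11, adjusted p = 0.014) rose with calls that did not hold without KO E41 replicate 1 (0.13 and 0.063), KO E41 replicate 2 (0.069 and 0.094) or KO E62 replicate 1 (0.092 and 0.060). With those libraries left out the count of 20 fell to 4, 9 and 10, and without KO E62 replicate 2 to 9. COX7A1 (0.29, adjusted p = 0.19), COX7A2 (0.14, adjusted p = 0.45) and COX6A1 (0.04, adjusted p = 0.81) were not called.

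Only COX6A2 was called higher with stage in both genotypes among the 81, and 8 members were called in opposite directions. The shares of all genes doing so are not given here. The number of knockout stage calls depended on single libraries, as given above. SDHA, NDUFS8, NDUFS6, ATP5F1D and NDUFAF8 were higher at E62 than at E41 in wild type and lower in knockout. COX6C, ATP5MK and the small complex IV subunit COX7B were lower at E62 in wild type and higher in knockout. Across the 81 genes the stage changes in the 2 genotypes had Pearson r = −0.36 and Spearman rho = −0.35, again a description over genes.

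**Figure D4:**
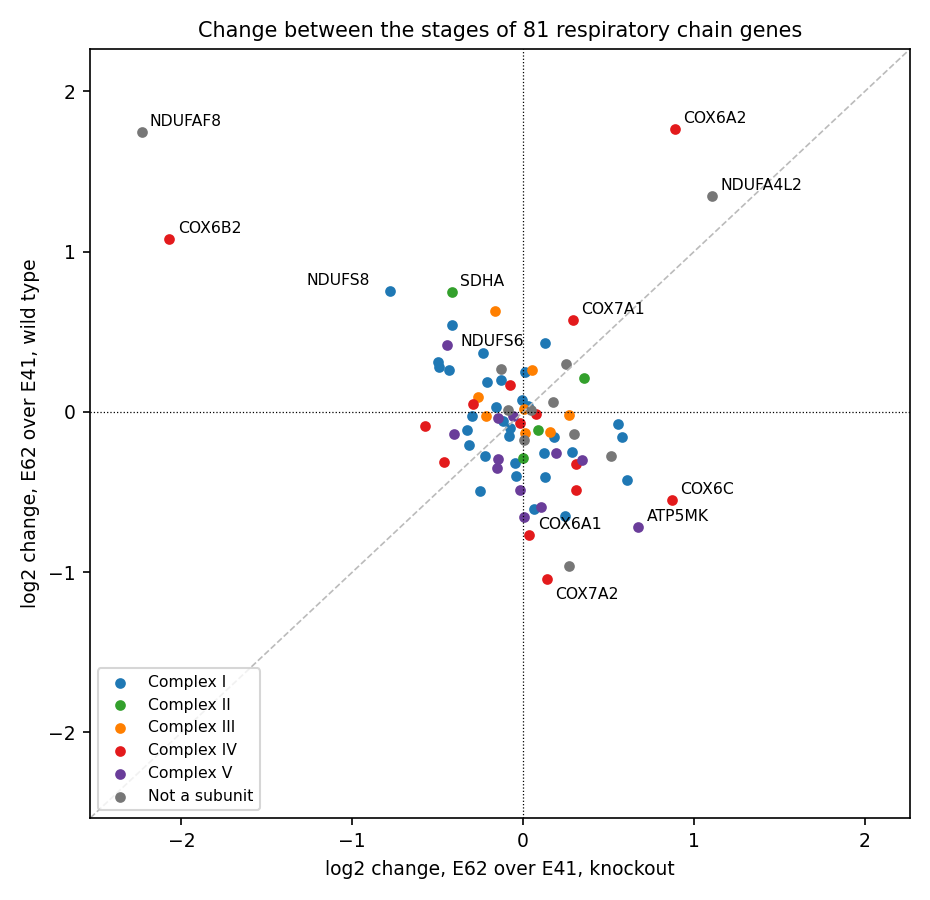
Log2 change between the stages (E62 over E41) in knockout (x axis) and in wild type (y axis) for the 81 genes, coloured by complex, with the dashed line at equal change. COX6A2 rises in both genotypes, by 0.89 in knockout and 1.76 in wild type, and NDUFAF8 moves in opposite directions, by −2.23 in knockout and 1.74 in wild type.

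Of the 81 genes, 54 had a position in RefSeq for Sscrofa11.1, on 18 chromosomes and with at most 9 on any one. Among genes with large stage differences, SDHA (chr16:79838442-79862956) and NDUFS6 (chr16:78993909-79000001) both lie on chromosome 16, with NDUFAF2 (chr16:39770398-39950786) farther off. COX6C lies at chr4:37074619-37089364, COX7A2 at chr1:90696746-90703407, NDUFS8 at chr2:4863295-4867392 and NDUFAF8 at chr12:1517304-1519478.

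Of the 13 respiratory chain subunits encoded by mitochondrial DNA, 9 fell and 1 rose at E41 (median −0.83) and 12 fell at E62 (median −0.66, but 5 fell with library size alone and 6 with upper-quartile factors). For this and the lists that follow, 20.8% of all genes fell and 18.5% rose at E41 with TMM scaling. At E62 the shares were 26.2% and 21.0%. COX1, the catalytic subunit of complex IV, fell by 0.56 ± 0.16 at E41 and 1.04 ± 0.16 at E62 on the log2 scale. The 1 rise was ND4L, a complex I subunit (0.75 ± 0.18, adjusted p = 0.015), whose gene overlaps ND4, so its counts are uncertain. Among 18 genes of the citric acid cycle and pyruvate entry, 16 fell at E41 (median −0.74) and all 18 at E62 (median −0.99), led by fumarate hydratase FH (−1.48 ± 0.10 and −1.71 ± 0.10). Of 16 fatty acid oxidation genes, 11 fell at each stage (medians −0.53 and −0.50), led by the acyl-CoA dehydrogenase ACADL (−1.58 ± 0.09 and −1.66 ± 0.09). Scaled by library size, 6 fell and 2 rose at E41 (median −0.25), and 7 fell and 2 rose at E62 (median −0.20). CPT2, which takes in acylcarnitines, rose at both stages (0.36 ± 0.12 and 0.54 ± 0.11).

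Protein import and outer membrane genes fell in 17 of 19 cases at E41 (median −0.61) and 18 of 19 at E62 (median −0.65), among them the channel gene VDAC3 (−1.18 ± 0.09 and −1.47 ± 0.09). With library size alone 11 of 19 fell at E41 (median −0.32) and 10 at E62 (median −0.34). Of 65 mitochondrial ribosome genes, 46 fell at E41 (median −0.58) and 42 at E62 (median −0.42), with 1 rise at each stage, MRPS2 at E41 (0.58) and MRPL52 at E62 (0.42). Scaling by library size left 28 falls and 3 rises at E41, and 15 falls and 6 rises at E62 (median −0.12). Of 44 assembly factors outside the members, 17 fell and 1 rose at E41 (median −0.28, and 0.01 with library size alone) and 24 fell at E62 (median −0.36). The all-gene shares beside these TMM counts were again 20.8% lower and 18.5% higher at E41, and 26.2% and 21.0% at E62. Under library-size scaling 8 of the 44 assembly factors fell and 8 rose at E41, and 15 fell and 4 rose at E62. Cytochrome c (CYCS) fell by 1.61 ± 0.11 and 1.54 ± 0.11 on the log2 scale.

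Among ADP/ATP carriers, the heart and muscle isoform SLC25A4 had 20.4 and 23.6 CPM in KO E41, against 89.8 and 80.3 CPM in WT E41, and 21.7 and 19.9 CPM in KO E62, against 245 and 302 CPM in WT E62 (−1.95 ± 0.13 and −3.72 ± 0.14). Its isoform of dividing cells, SLC25A5, had 36.9 and 37.8 CPM in KO E41, against 48.8 and 49.0 CPM in WT E41 (−0.39 ± 0.08, adjusted p = 0.0080, and 0.38 with library size alone), and 37.0 and 37.9 CPM in KO E62, against 19.3 and 18.1 CPM in WT E62 (1.00 ± 0.08, adjusted p = 7.0e-05). SLC25A5 was thus lower in knockout at E41 and higher at E62, the order seen for COX6A1.

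Of 19 regulators of mitochondrial biogenesis, 4 fell and 3 rose at E41 (median 0.08), against 20.8% and 18.5% of all genes, and 9 fell at E62 (median −0.34), against 26.2%. With library size alone 3 fell and 10 rose at E41 (median 0.37), and 6 fell and 4 rose at E62 (median −0.03). The coactivator PPARGC1A had 2.28 and 2.19 CPM in KO E41, against 5.02 and 5.09 CPM in WT E41, and 6.34 and 5.51 CPM in KO E62, against 20.2 and 25.1 CPM in WT E62 (−1.17 ± 0.18 and −1.93 ± 0.17). The nuclear receptor ESRRG fell further, to 1.01 and 1.09 CPM in KO E41, against 4.01 and 2.70 CPM in WT E41, and to 0.221 and 0.217 CPM in KO E62, against 14.8 and 7.36 CPM in WT E62. ESRRA, a related receptor, fell at E62 (−1.29 ± 0.13, adjusted p = 0.00018) and was not called at E41 (0.03 ± 0.14). NRF1 and TFAM, general activators of respiratory chain and mitochondrial genes, were called at neither stage (NRF1 −0.01 and 0.13, TFAM 0.08 and −0.18), although with library size alone TFAM was higher in knockout at E41 (adjusted p = 0.010) and NRF1 at E62 (0.0078).

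Low-oxygen target genes, listed because COX4I2 and NDUFA4L2 are known to respond to low oxygen, numbered 17. At E41 4 fell and 1 rose, against 20.8% and 18.5% of all genes, and at E62 3 fell and 4 rose, against 26.2% and 21.0%, so nothing is read from these counts. EGLN3, an oxygen-sensing hydroxylase, fell (−1.98 ± 0.28 and −2.29 ± 0.28), and VEGFA, the vessel growth factor, rose at E62 (1.01 ± 0.25, adjusted p = 0.016).

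**Figure D5:**
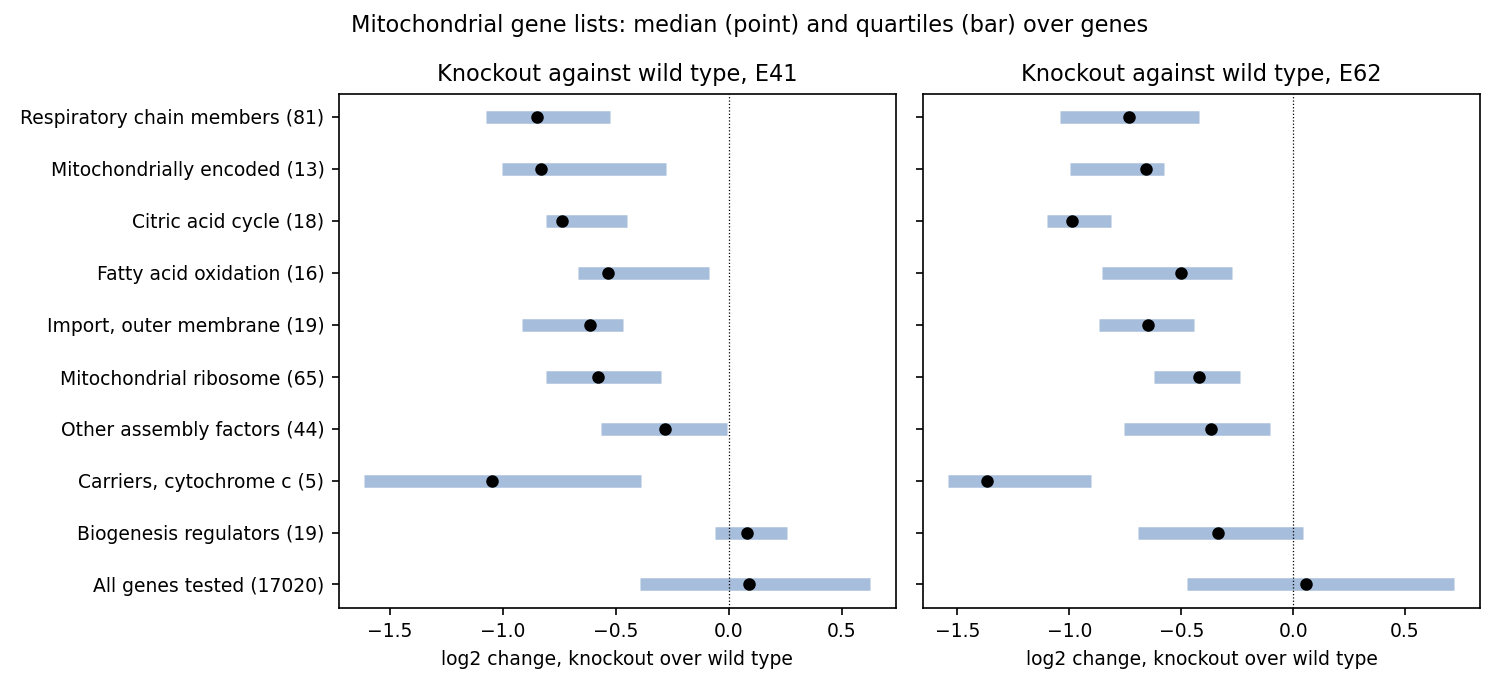
Median (point) and quartiles (bar) over genes of the log2 change in knockout over wild type at E41 (left) and E62 (right), for the 81 respiratory chain genes, 8 other mitochondrial lists and all 17020 genes tested, with the number of genes in brackets. The members' medians are −0.85 and −0.74, against 0.09 and 0.06 for all genes (the E41 median of other assembly factors turns to 0.01 with library size alone).

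The plot of list medians places the members' fall beside those of the citric acid cycle, import and mitochondrially encoded genes. The 8 heart markers summed to 5.90 and 5.82 CPM in KO E41, against 29.2 and 21.5 CPM in WT E41, and to 16.7 and 14.2 CPM in KO E62, against 50.9 and 50.9 CPM in WT E62. Only 5 of them were tested. With library size alone 0 rose and 3 fell at E41 (median −1.48), and 1 rose and 2 fell at E62, where the median was above 0 (0.58). The E62 sum therefore does not describe the typical heart marker. NKX2-5, NPPA and NPPB were at or under 0.27 CPM in every library. Adipocyte markers summed to 22.3 and 33.7 CPM in KO E41, against 38.9 and 41.1 CPM in WT E41, and to 127 and 212 CPM in KO E62, against 129 and 154 CPM in WT E62. With library size alone 1 of 8 adipocyte markers rose and 0 fell at E41 (median 0.08), and 5 rose and 1 fell at E62 (median 1.65). ADIPOQ, made by fat cells, had 5.71 and 17.9 CPM in KO E62, against 0.120 and 0.324 CPM in WT E62. Pericyte markers, a cell type known for COX4I2, summed to 684 and 712 CPM in KO E41, against 680 and 589 CPM in WT E41, and to 546 and 756 CPM in KO E62, against 964 and 1106 CPM in WT E62. The part of these cells in the members' levels was not tested.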

How the data were processed

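RNA was sequenced in bulk from 8 limb muscle libraries (TruSeq RNA or Stranded mRNA kits, per the labels). The authors deposited expected counts per gene, which are estimated and need not be whole. Kallisto, DESeq2 and Sscrofa11.1 (susScr11) are named in the submitters' processing notes, without role or version, and strand handling is not given in the sources used here. Such estimates can share out reads between near-identical gene copies, which leaves COX6C, COX7C, ATP5MC1, ATP5MC2 and ATP5MC3 uncertain. NDUFA4, listed in RefSeq on both chr9 and chr13, was not checked for this.

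Symbols were found for 15527 of 22516 rows (69.0%) by gene ID, and rows without one could not be picked by the rule. Counts were rounded to whole numbers. Rows under the filterByExpr minimum count of 10 were dropped, leaving 17020 genes and at least 99.98% of counts. Totals of 23402052 to 60539245 per library set the precision. edgeR 4.0.16 in R 4.3.3 was fitted with TMM factors, 1 mean per group over all 8 libraries (4 residual degrees of freedom) and the robust quasi-likelihood F test. Adjusted p-values, all from this test unless another is named, are Benjamini-Hochberg over all 17020 genes at 0.05, with 5 comparisons. A standard error (SE) is the log2 change divided by the square root of F. Log2 ratios within a library used a pseudocount of 0.5 and were tested by two-sided exact permutation.

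Alternatives were DESeq2 1.42.0, limma 3.58.1 (voom), other scaling factors and filters, a replicate block, the compared groups alone and each library left out. The fit scaled to the other 79 members and the crossed block were added after seeing the data. The procedure was tested on simulated data. The members and gene lists were chosen with earlier results of these data known. Genes named with values are the isoform pairs, the extremes of each complex, those called against the majority, and up to 6 leading stage differences, plus up to 3 leading genes and 2 against the majority per list. SDHB, SDHA at E41, COX1, SLC25A5, ESRRA, ADIPOQ, CYCS, NRF1, TFAM and the members listed as called at neither stage were named after their values were seen. The 2 libraries of each group differed beyond sampling noise and were counted as 2 samples. Members shifted together between replicates. In CPM, 58 members were higher in replicate 1 of KO E41, 20 in WT E41, 66 in KO E62 and 70 in WT E62. Counts of members called are therefore not counts of independent results.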

Additional observations from a re-analysis of the deposited data

Results flagged for a closer look

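The knockout effect differed between E62 and E41 for 30 of 81 members, by the test of the difference itself (edgeR, adjusted p under 0.05). Of all genes, 26.8% were called for this difference. The difference in log2 change was positive for COX6C (1.42), ATP5MK (1.39), COX7A2 (1.18) and COX6A1 (0.81). It was negative for NDUFAF8 (−3.98), NDUFS8 (−1.54), SDHA (−1.16), NDUFS6 (−0.95), ATP5F1D (−0.87) and NDUFA10 (−0.77). Macrophage and fibroblast markers and the KO E41 cartilage and KO E62 keratinocyte signals moved between the same libraries, and their part in these differences was not tested.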

How the results depend on the processing

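Of 1356 alternative values for 76 named results, 1265 kept direction and side of the threshold, 45 lost the call, 21 gained one and 25 changed sign, none of these past the threshold. Requiring a change of at least 2-fold left 30 members at E41, 25 at E62, 9 for the difference, 4 for stage in wild type and 2 for stage in knockout. The shares of all genes passing that cut are not given here, so these counts show only how the calls depend on the threshold. With library size alone the members' median was −0.56 at E41 and −0.43 at E62, and with upper-quartile factors −0.48 at E62 and 0.11 for stage in knockout. The medians of all genes were 0.38 and 0.36 with library size alone, and 0.31 and 0.078 with upper-quartile factors, in the same order. Permuting over 4 against 4 libraries without stage gave p = 0.0286 (exact) for COX6A2 to COX6A1 (−3.70), COX4I2 to COX4I1 (1.20) and the share of counts (−0.205). That is the smallest p that 70 arrangements can give. The same permutation gave p = 0.14 for NDUFA4L2 to NDUFA4 (1.04) and 0.40 for COX7A1 to COX7A2 (0.63). It ignores stage, although the mean log2 ratio of COX6A2 to COX6A1 was −1.81 in WT E41 and 0.70 in WT E62.

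With each library left out in turn, the E41 median ranged from −0.89 to −0.70, the difference count from 17 to 28, and the knockout stage count from 4 to 21 with its median from −0.11 to 0.048. Relative to the other members, COX7A1 ranged from 0.61 to 0.84 at E41 and from 0.58 to 0.79 for stage in wild type, and COX6A2 from −1.15 to −0.72 for the difference and from 0.73 to 1.06 for stage in knockout.

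Signs changed with library size alone for COX7A1 (0.18), NDUFA4L2 (0.27), SDHA (0.18) and COX6C (0.069) at E41, and for COX7A2 (0.0046), NDUFA4L2 (0.047) and NDUFA2 (0.18) at E62. They changed with upper-quartile factors for NDUFA4L2 at E41 (0.10) and NDUFA2 at E62 (0.13), with a filter of 1 CPM for NDUFA4L2 at E41 (0.031), and with only the compared groups for NDUFS8 at E41 (−0.016). With single libraries left out, values ran from −0.74 to 0.47 for NDUFA4L2, from −0.11 to 0.22 for COX8A and from −0.082 to 0.15 for NDUFS8 at E41. At E62 they ran from −0.62 to 0.035 for NDUFA4L2, from −0.15 to 0.15 for ATP5MK and from −0.30 to 0.084 for NDUFA2, and for stage in knockout from −0.028 to 0.089 for COX6A1. Causes were not tested.

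Same-numbered replicates did not pair (correlation of deviations −0.122 at E41 and −0.0094 at E62, only 2 pairs). A replicate block gave 64, 63, 25, 25 and 18 members called (E41, E62, difference, stage in wild type, stage in knockout), and COX6A2 relative to the other members lost its difference call (−0.95, adjusted p = 0.054). Crossing the numbers in WT E41 gave 66, 65, 31, 34 and 26. With upper-quartile factors, higher and lower calls split 24 and 10 for the difference and 15 and 5 for stage in knockout. Of all genes under that scaling, 2689 were higher and 2103 lower for the difference, and 2805 and 2273 for stage in knockout. With the 1 CPM filter the members split 17 and 14 for stage in wild type and 13 and 7 for stage in knockout. All-gene shares for the blocks and this filter are not given here, so nothing further is read from those counts. With 2 libraries per group, small changes and low-count members such as COX6B2 and NDUFAF8 are the least certain.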
